A study of Mus musculus with 14 samples.

Results

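The Klhl and Kbtbd genes encode Kelch family proteins, adaptors that select proteins for ubiquitination. Members were the protein-coding genes of the deposited count table whose symbol is Klhl or Kbtbd followed by a number and nothing else. The rule found 45 of 54532 listed genes (22046 of them protein-coding), of which 36 were Klhl genes and 9 were Kbtbd genes. Members known for a role in skeletal muscle, Klhl31, Klhl40, Klhl41 and Kbtbd13, were described apart from the other 41. Enough reads for a test were found for 40 members, including these 4, and the other 5 members are accounted for by their counts.

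Most proteins of this family carry a BTB domain, which binds the scaffold Cul3, and a set of kelch repeats, which fold into a propeller that holds the substrate. Together with Cul3 and the RING protein Rbx1 they form ubiquitin ligases, and the choice of adaptor decides which protein is marked. In skeletal muscle the family is known through KLHL40, KLHL41 and KBTBD13, whose mutations cause nemaline myopathy, and through Klhl31, whose loss causes a myopathy in mice.

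The study measured RNA from skeletal muscle of male FVB/N mice by sequencing of poly-A selected libraries, to ask how c-Myc in endothelial cells bears on the response to an obesogenic diet. Overexpressing mice (OE) carried human MYC under a tetracycline-responsive promoter and the tetracycline transactivator under the endothelial Cdh5 promoter, and controls (CT) were littermates that carried the MYC transgene without the transactivator. The MYC transgene is Y-linked, hence the use of males. The lines were bred on doxycycline, which keeps the transgene off, and its withdrawal at 4 to 6 weeks of age induced c-Myc in OE mice. Both genotypes then ate a control diet (CTD, TD.08485) or a high-fat western diet (WD, TD.88137). The labels give 20 weeks on the diets, the text of the study gives a shorter exposure for the muscle data, and the age at tissue collection is not given in the labels. The 4 groups were CT-CTD (3 libraries), CT-WD (3 libraries), OE-CTD (4 libraries) and OE-WD (4 libraries). The transactivator is expressed from an endothelial promoter, and RNA of whole muscle comes mostly from cells of other types. The methods of the study name soleus and gastrocnemius, and the labels do not say which muscle each library came from. The sample codes in the labels share digits among all 4 OE-WD libraries and among OE-CTD 1, 2 and 3. In CT the codes of CT-CTD 1 and CT-WD 1 are consecutive, as are those of the other 4 libraries, and no code number is shared between the genotypes. What the codes stand for is not given, and anything they mark cannot be told apart from genotype, nor in OE from diet. The number of mice per group in the text of the study does not match the labels for all groups, and the labels were used.

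Total counts ranged from 24101226 to 25054855 per library in CT-CTD, from 21833839 to 26518734 in CT-WD, from 22083340 to 28519159 in OE-CTD and from 22033140 to 27698046 in OE-WD. Levels are given as TMM-normalised CPM, the read counts of a gene scaled to a common library size, and levels of different members are ranked only as CPM per kilobase of gene length. The gene named with a sum over markers is the one with the most reads in it, whatever its level per length, and CPM set beside a gene that shares exon bases also stands for reads. Markers of muscle fibres were high in all 14 libraries, with a summed level of 70213 to 97049 CPM over 7 genes, led by Acta1 at a median of 41843 CPM. Fast fibre markers, led by Myh4, summed to 119867 to 147255 CPM in CT (median 129434) and 109889 to 155575 CPM in OE (median 117618). Slow fibre markers, led by Atp2a2, summed to 4164 to 5742 CPM in CT (median 5005) and 5146 to 6570 CPM in OE (median 5847). Mouse Myc, not used here as a measure of the human transgene, had a median of 5.52 CPM in CT (4.45 to 13.3) and 5.8 CPM in OE (3.06 to 9.03). Whether reads of the transgene were counted as mouse Myc was not tested.

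Several libraries stood apart from their groups. On the first principal component, which held 28% of the variance, CT-CTD 2, CT-CTD 3, CT-WD 2 and CT-WD 3 lay at one end, and CT-CTD 1 and CT-WD 1 lay among the OE libraries. On the second component, with 12.6% of the variance, OE-CTD 4 and OE-WD 4 lay apart from the other libraries. CT-WD 3 held 54 genes more than 2-fold above every other library, which is 0.349% of the 15458 genes tested, and 2 of the 40 members tested, Klhl40 and Klhl30, were among them. Genes more than 2-fold below every other library numbered 144 in OE-CTD 4, 134 in CT-WD 3, 106 in CT-WD 2 and 17 to 71 in the other 11 libraries, with 0 members among them. For several results, values without these libraries are given too.

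Klhl41, an adaptor of the sarcomere that is mutated in nemaline myopathy, had the highest level of the family, with a median of 250 CPM per kilobase and a range of 224 to 299 over the 14 libraries. Klhl40, which stabilises nebulin and leiomodin 3 in the thin filament, followed at a median of 62.3 CPM per kilobase (49.6 to 189). Next came Klhl21, which targets Aurora B and the kinase IKK-beta, at 59.5 (39.5 to 64.7) and the muscle gene Klhl31 at 56.1 (36.8 to 65.2) on the same scale. The gap between Klhl41 and Klhl40 was free of overlap in all 14 libraries, whereas the ranges of all the other 8 neighbouring pairs among the 10 highest members overlapped. Library by library, Klhl40 was above Klhl21 in 8 of 14 libraries and Klhl21 above Klhl31 in 10, whereas Klhl31 was above Klhl30 in 13 and Klhl24 above Klhl7 in all 14.

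The remaining members of the highest 10 were Klhl30 (median 26.7 CPM per kilobase), Klhl34 (20.6), Kbtbd12 (20.1), Klhl33 (19.6), Klhl24 (16.7), known for the turnover of keratin in skin, and Klhl7 (14.7). The fourth muscle member, Kbtbd13, stood at rank 18 with a median of 3.48 CPM per kilobase (1.45 to 4.78). By this measure 1 member had a median of at least 100, 10 members lay between 10 and 100, 16 between 1 and 10, and 18 under 1, among them the 5 members that could not be tested. The median level of the tested members was 2.07 CPM per kilobase, and that of all genes tested was 2.16. Klhl41 alone made up 36% to 42.7% of the level per length summed over the family (median 40%), and the 4 muscle members together 56.4% to 66.2% (median 59.1%). These shares overlapped between genotypes, with a median for the muscle members of 59% in CT and 60% in OE. Ordered by the deposited FPKM values instead, the same 10 members came highest in the same order.

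**Figure D1:**
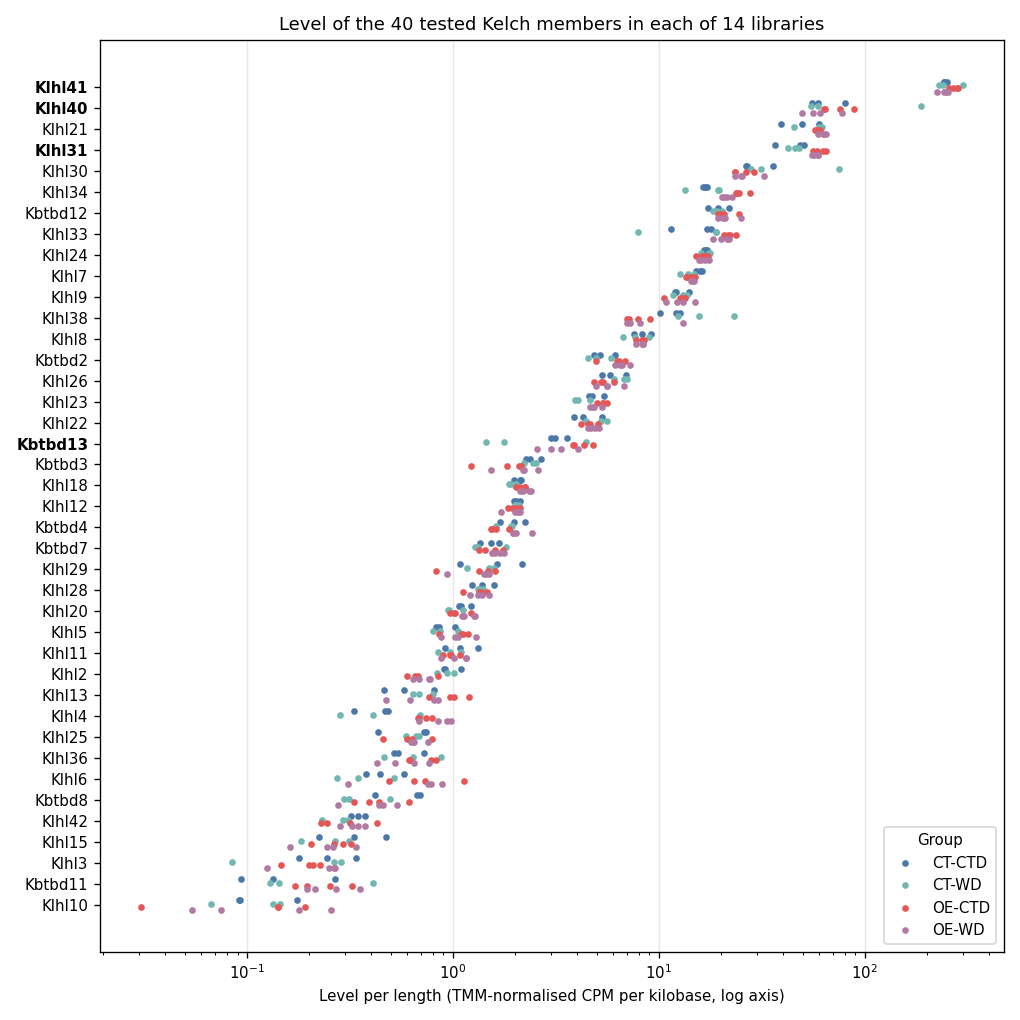
Level of each of the 40 tested members in CPM per kilobase on a log axis, with 1 point per library, coloured by group and set in 4 rows per member; muscle members are in bold. Klhl41 stands alone at 224 to 299, and the CT-WD points of Klhl40 and Klhl30 include a library far to the right of the others.

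Members also differed in how steady they were across the 14 libraries. The ratio of highest to lowest CPM was 1.18 for Klhl24, 1.24 for Klhl12, an adaptor for Dishevelled and Sec31, and 1.28 for Klhl7. Among the more abundant members it was 3.81 for Klhl40, 3.3 for Klhl38, 3.29 for Kbtbd13, 3.21 for Klhl30 and 2.99 for Klhl33. Without CT-WD 3 it was 1.79 for Klhl40, 3.3 for Klhl38, 2.69 for Kbtbd13, 1.53 for Klhl30 and 2.06 for Klhl33. The median SD of log2 CPM over libraries was 0.21 for the tested members and 0.229 for all genes tested. At the low end, Klhl10, known for its role in spermatogenesis, passed the filter with 94 counts over all libraries and a median of 0.298 CPM. The 5 members removed by the filter on low counts were Klhl35 with 25 counts in 10 libraries, Klhl32 with 10 counts in 6 libraries, Kbtbd6 with 8 counts in 3 libraries, and Klhl1 and Klhl14 with 0 counts. A count of 0 allows up to 3 counts, or 0.105 to 0.137 CPM per library by depth, as counting error only.

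Genotype was compared first over both diets, as OE against CT averaged over CTD and WD. Of the 40 members tested, 5 passed the test: the muscle gene Klhl31 and the X-linked genes Klhl34 and Klhl4 rose in OE, and Klhl38 and Klhl2 fell. The same test called 8.49% of all genes tested, 5.04% as higher and 3.45% as lower in OE, so that the members' count of 5 is read against a genome-wide share of that size. At an unadjusted p under 0.05 there were 13 members, against 23.9% of all genes. The median log2 fold change was 0.03 over the members and -0.00 over all genes. Klhl31 and Klhl34 were the 2 members whose 8 OE libraries all lay above all 6 CT libraries, a pattern shown by 1.06% of all genes; 0 members lay below in all 8, against 0.77% of all genes. In bulk tissue, fewer cells of a type and less RNA per cell cannot be told apart.

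Klhl31 (ENSMUSG00000044938, mm10 chr9:77636500-77660127, plus strand) encodes an adaptor needed for the upkeep of skeletal muscle and linked to the turnover of filamin C. It read 316, 328 and 239 CPM in CT-CTD, 299, 313 and 274 CPM in CT-WD, 380, 366, 406 and 423 CPM in OE-CTD, and 384, 362, 369 and 387 CPM in OE-WD. All OE values lay above the highest CT value, and the lowest value was that of CT-CTD 3. The group means were 294 ± 48.5 CPM (SD, n = 3) in CT-CTD, 295 ± 19.5 (n = 3) in CT-WD, 394 ± 25.6 (n = 4) in OE-CTD and 376 ± 11.6 (n = 4) in OE-WD. The log2 fold change over both diets was 0.38 (SE 0.0727, a fold of 1.3), with an adjusted p of 0.00572 (edgeR's quasi-likelihood test, Benjamini-Hochberg). It was called without each library in turn, at 0.32 to 0.43.

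Klhl34 (ENSMUSG00000047485, chrX:157818435-157820369, plus strand) read 32.5, 33.3 and 31.8 CPM in CT-CTD, 37.7, 25.9 and 37.8 CPM in CT-WD, 47.7, 46.6, 45.9 and 53.9 CPM in OE-CTD, and 40.3, 39.3, 43.9 and 41.3 CPM in OE-WD. OE-CTD held the 4 highest values, OE-WD came next, and no OE value reached down to the CT range. Its log2 fold change over both diets was 0.43 (SE 0.0795, a fold of 1.35; adjusted p 0.00502). Klhl4 (ENSMUSG00000025597, chrX:114474333-114560829, plus strand) was a low-level transcript at 1.74, 1.67 and 1.19 CPM in CT-CTD, 2.49, 1.01 and 1.47 CPM in CT-WD, 2.45, 2.84, 2.43 and 2.65 CPM in OE-CTD, and 2.45, 3.51, 3.36 and 3.05 CPM in OE-WD. CT-WD 1 overlapped the OE range, and the other 5 CT libraries lay below it. Klhl4 rose by a log2 fold change of 0.82 (SE 0.188, a fold of 1.76; adjusted p 0.0155).

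The other X-linked members, Klhl13, a partner of Klhl9 in the control of Aurora B, and Klhl15, did not pass the test. Klhl13 had a median of 2.81 CPM in CT (1.97 to 3.44) and 3.54 CPM in OE (2.01 to 5.1), and Klhl15 had 2.82 CPM (1.78 to 4.63) and 2.56 CPM (1.58 to 3.29).

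Klhl38 (ENSMUSG00000022357, chr15:58314573-58324169, minus strand) read 28.1, 26.9 and 22.4 CPM in CT-CTD, 27.4, 51.1 and 34.7 CPM in CT-WD, 17.5, 15.9, 15.5 and 20 CPM in OE-CTD, and 29, 15.5, 16 and 17.9 CPM in OE-WD. The highest value was that of CT-WD 2, and OE-WD 1 was the only OE library inside the CT range. Klhl38 fell by 0.76 on the log2 scale (SE 0.153, a fold of 0.589; adjusted p 0.00778). Of its annotated exon bases, 65.4% are also covered by the antisense gene Gm15943 on the other strand. Gm15943 had a median of 4.9 CPM in CT (2.82 to 9.62) and 2.3 CPM in OE (1.42 to 4.32) and fell by 1.17 on the log2 scale (SE 0.221, adjusted p 0.00572; a gene named after its values were seen). The strand setting of the counting is not given, so reads of the 2 genes in the shared bases cannot be told apart.

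Klhl2 (ENSMUSG00000031605, chr8:64739675-64850017, minus strand), which like Klhl3 targets WNK kinases, read 10.1, 8.37 and 8.5 CPM in CT-CTD, 9.4, 7.78 and 8.67 CPM in CT-WD, 6.06, 5.54, 7.83 and 6.23 CPM in OE-CTD, and 7.04, 7.15, 6.34 and 5.95 CPM in OE-WD. The genotypes met at a narrow margin, where OE-CTD 3 lay just above CT-WD 2. Klhl2 fell by 0.43 on the log2 scale (SE 0.0976, a fold of 0.74; adjusted p 0.0136). Its close relative Klhl3 was 1 of the members with the lowest levels, at a median of 0.235 CPM per kilobase (1.72 CPM, range 0.622 to 2.47), and did not pass the test.

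All 5 members were called without each library in turn and with the replicate number as a block, where Klhl31 had a log2 fold change of 0.36 and Klhl38 of -0.79. The count itself moved, and so did the share of the 15458 genes: DESeq2 called 8 members and 11.6% of all genes, and limma 5 members and 7.34%. The replicate block gave 7, adding Klhl6 and Klhl26, with 11% of all genes. No CT library is numbered 4, so with the block OE-CTD 4 and OE-WD 4 add nothing to comparisons of genotype. With no gene filtered for low counts it was 7, adding Klhl30 and Klhl33, with 10.1%. Without CT-WD 1 edgeR called 10, among them Kbtbd13, Klhl30 and Klhl33, and 16% of all genes. The share also fell: without CT-WD 2 edgeR called 5 members and 4.57% of all genes, and without CT-CTD 3 it called 5 and 4.6%. Without both CT libraries numbered 1, an alternative chosen after the data were seen, it called 11, and 18% of all genes. Without both OE libraries numbered 4, chosen likewise, it called the same 7 members as the block, and 10.7% of all genes. For genotype this setting and the block are not separate checks. With the group names of CT-WD and OE-CTD swapped, the genotype average becomes by algebra the diet average of the labels as given, so the 0 members then called are the diet result under another name.

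**Figure D2:**
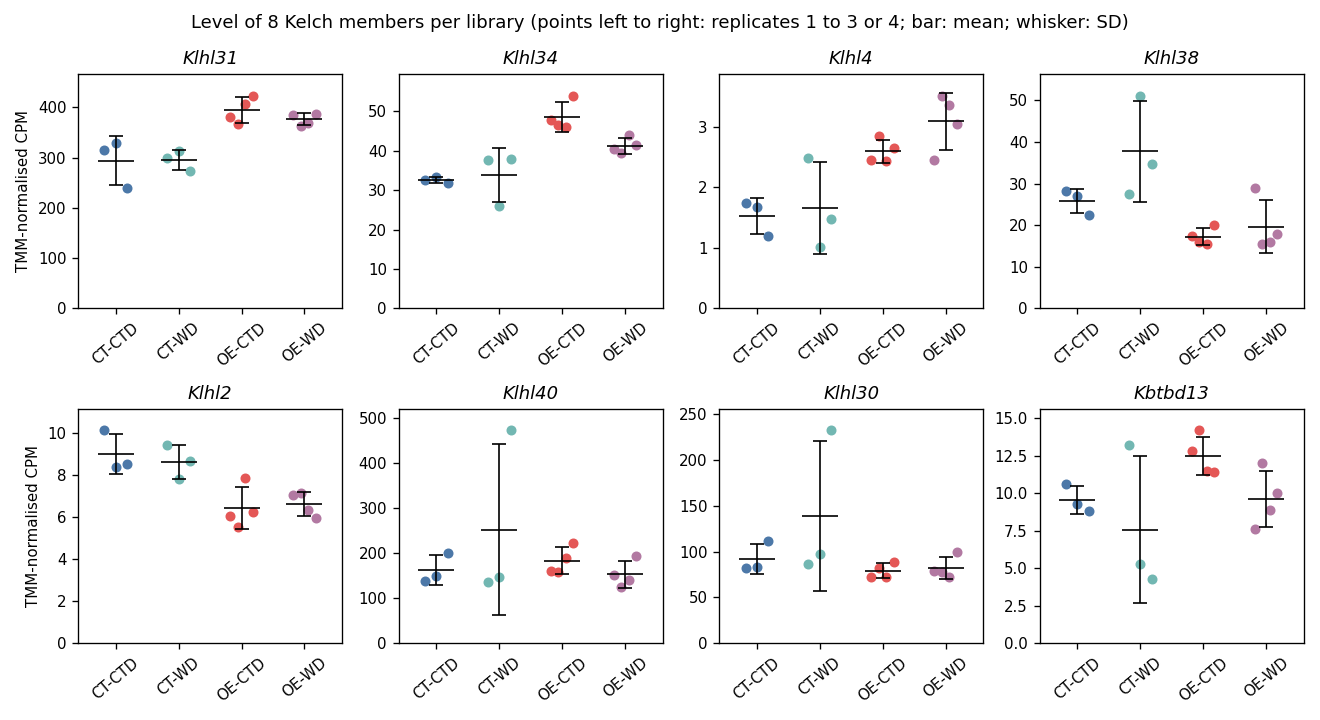
Level in CPM of 8 members in each library by group, with replicates from left to right, a bar for the group mean and whiskers for the SD (n = 3 for both CT groups, n = 4 for both OE groups). All OE points of Klhl31 and Klhl34 lie above the CT points, and 1 CT-WD library lies far above the rest for Klhl40 (472 CPM) and Klhl30 (232 CPM).

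Markers of other cell types moved with genotype as well. Over all genes, edgeR called 8.49%, DESeq2 11.6% and limma 7.34%. Of 5 fibroblast markers, 4 rose in OE over both diets (DESeq2 called 5 and limma 2), and their summed level, led by Dcn, was 459, 348 and 316 CPM in CT-CTD, 1095, 326 and 306 CPM in CT-WD, 958, 1157, 1001 and 636 CPM in OE-CTD, and 769, 1885, 1066 and 747 CPM in OE-WD. CT-WD 1 was the only CT library in the OE range. Of 6 tendon markers, 2 rose (DESeq2 and limma called 4), and their sum, led by Fmod, was 235, 101 and 163 CPM in CT-CTD, 478, 84.1 and 107 CPM in CT-WD, 403, 608, 500 and 306 CPM in OE-CTD, and 410, 845, 559 and 301 CPM in OE-WD. Of 8 endothelial markers, 5 rose (DESeq2 called 6 and limma 5), and their sum, led by Cdh5, was 381, 375 and 407 CPM in CT-CTD, 435, 390 and 433 CPM in CT-WD, 464, 468, 443 and 436 CPM in OE-CTD, and 475, 487, 470 and 489 CPM in OE-WD. Every OE library thus lay above every CT library in the endothelial sum. No gene of these 3 lists was at 0 in any library.

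Among the other marker lists, 1 of 4 satellite cell markers rose (sums of 5.78 to 12.5 CPM in CT and 10.3 to 14.5 CPM in OE), as did 1 of 7 adipocyte markers (242 to 510 and 168 to 375 CPM) and 1 of 7 slow fibre markers, where DESeq2 called 1, 1 and 2 and limma 1 of each. Macrophage markers summed to 26.2 to 81.5 CPM in CT and 49.3 to 84.3 CPM in OE, Schwann cell markers to 112 to 329 and 122 to 330 CPM, epidermis markers to 4.94 to 91.3 and 2.96 to 123 CPM, and blood markers to 191 to 277 and 125 to 382 CPM. The list for B and plasma cells had 2 tested genes, and its sum (a median of 551 CPM in CT and 408 CPM in OE) came mainly from Ighm, while Ms4a1 was at 0 in most libraries. In these 5 lists and those for muscle fibre and fast fibre, edgeR called 0 of 41 tested genes for genotype over both diets, with 9 at an unadjusted p under 0.05, 5 of them macrophage markers, while DESeq2 called 3 and limma 0. The part of these cell types in the results for the members was not tested.

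Within each diet, OE was set against CT separately, in comparisons that share their libraries with the average above. On the control diet, OE-CTD against CT-CTD, Klhl34 and Klhl31 rose and made up the 2 of 40 members called, where the test called 2.67% of all genes (1.57% as higher in OE). The log2 fold change was 0.57 for Klhl34 (SE 0.113, a fold of 1.49; adjusted p 0.0162) and 0.42 for Klhl31 (SE 0.103, a fold of 1.34; adjusted p 0.0425). At an unadjusted p under 0.05 there were 8 members, against 15.9% of all genes, and the next in order, Klhl2, stood at -0.49 (SE 0.138, adjusted p 0.0785). The members' median log2 fold change was -0.01, and that of all genes -0.00.

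The call for Klhl34 was lost without CT-CTD 2 (log2 fold change 0.59) or CT-CTD 3 (0.56), and that for Klhl31 without any of CT-CTD 1, 2 or 3, OE-CTD 1, 2, 3 or 4, or OE-WD 1, 2 or 3, at 0.29 to 0.51. The count of members was 0 without CT-CTD 2 (0.692% of all genes) or CT-CTD 3 (0.498%). It was 1 (Klhl34) without CT-CTD 1, without any OE-CTD library or without OE-WD 1, 2 or 3 (0.783% to 2.78%), and 3 without CT-WD 3 (3.22%). With replicate number as a block it was 0, with 1.2% of all genes called, at log2 fold changes of 0.52 for Klhl34 and 0.40 for Klhl31 and 7 members at an unadjusted p under 0.05. DESeq2 called 3 members (with Klhl2) and 5.01% of all genes, and limma 1 (Klhl34) and 1.69%. With only the groups compared in the fit the calls were Klhl34 and Klhl38, without Klhl31 (3.86% of all genes), and with no gene filtered they were Klhl31, Klhl34 and Klhl38 (4.86%).

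On the western diet, OE-WD against CT-WD, edgeR called 0 of 40 members, against 0.725% of all genes, whereas DESeq2 called 3 (Klhl31, Klhl38 and Klhl4), with 3.69% of all genes, and limma 0, with 0.252%. An unadjusted p under 0.05 was found for 12 members, 8 of them higher in OE, against 16.9% of all genes. Klhl38 came nearest the threshold with a log2 fold change of -0.94 (SE 0.215, adjusted p 0.0564), followed by Klhl31 at 0.35 (SE 0.103, adjusted p 0.117) and Klhl4 at 0.88 (SE 0.265, adjusted p 0.119). The members' median was 0.10 and that of all genes 0.01. Without CT-WD 1 the count was 6 (Kbtbd13, Kbtbd2, Klhl30, Klhl38, Klhl4 and Klhl40), with 9.65% of all genes. Without OE-WD 1 it was 1 (Klhl38), with 0.847%. With no gene filtered for low counts, 2 were called (Klhl30 and Klhl38), with 3.55% of all genes. The share fell to 0.0453% without CT-WD 3, to 0.0259% without OE-WD 2 and to 0.0388% with replicate number as a block. In each of these fits 0 members were called.

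Side by side, the log2 fold change for genotype was 0.42 on CTD and 0.35 on WD for Klhl31, with an interaction of -0.07 (SE 0.144, adjusted p 0.967). For Klhl34 the values were 0.57 and 0.28, with an interaction of -0.29 (SE 0.158, adjusted p 0.857), and for Klhl38 they were -0.59 and -0.94, with an interaction of -0.36 (SE 0.307, adjusted p 0.922). Klhl4 stood at 0.76 and 0.88 (interaction 0.12, SE 0.374, adjusted p 0.976) and Klhl2 at -0.49 and -0.38 (interaction 0.11, SE 0.196, adjusted p 0.965). A difference between the diets was thus not called for any of these 5 members.

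Klhl41 (ENSMUSG00000075307, chr2:69670120-69684230, plus strand) was among the steadier members, at 614, 612 and 637 CPM in CT-CTD, 610, 578 and 757 CPM in CT-WD, 712, 678, 722 and 652 CPM in OE-CTD, and 645, 611, 625 and 566 CPM in OE-WD. The genotypes overlapped, and the highest value was that of CT-WD 3. Its log2 fold change for genotype over both diets was 0.04 (SE 0.0665, adjusted p 0.8), and for diet over both genotypes it was -0.06 (SE 0.0664, adjusted p 0.998). In the separate comparisons it stood at 0.06 (SE 0.1) for WD in CT, -0.18 (SE 0.087) for WD in OE, 0.15 (SE 0.0942) for OE on CTD and -0.08 (SE 0.0938) for OE on WD, none of them called.

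Klhl40 (ENSMUSG00000074001, chr9:121777607-121783818, plus strand) read 139, 149 and 201 CPM in CT-CTD, 137, 148 and 472 CPM in CT-WD, 160, 159, 190 and 222 CPM in OE-CTD, and 152, 124, 141 and 193 CPM in OE-WD. CT-WD 3 was more than 2-fold above every other library, and the remaining 13 overlapped freely between groups. The mean in CT-WD was accordingly 252 ± 190 CPM (SD, n = 3), beside 163 ± 33.2 (n = 3), 183 ± 30 (n = 4) and 153 ± 29.4 (n = 4) in CT-CTD, OE-CTD and OE-WD. With all libraries the log2 fold change was 0.63 for WD in CT (SE 0.349, adjusted p 0.774), -0.73 for OE on WD (SE 0.323, adjusted p 0.269), -0.28 for genotype over both diets (SE 0.229, adjusted p 0.493) and -0.89 for the interaction (SE 0.461, adjusted p 0.857). Without CT-WD 3 these values were -0.19, 0.10, 0.13 and -0.07, and the first 3 of them changed sign. Without CT-WD 1 the value for OE on WD was -1.02 and passed the test.

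Klhl30 showed the same library pattern, with 81.9, 83 and 111 CPM in CT-CTD, 86.2, 96.9 and 232 CPM in CT-WD, 72.6, 82, 72.4 and 89.1 CPM in OE-CTD, and 78.5, 77.2, 72.5 and 100 CPM in OE-WD. CT-WD 3 again lay over 2-fold above the rest. Its log2 fold change was -0.75 for OE on WD (SE 0.253, adjusted p 0.154) and -0.49 for genotype over both diets (SE 0.18, adjusted p 0.109), and without CT-WD 3 these values were -0.16 and -0.19. Without CT-WD 1 both were called, at -1.01 and -0.61. Klhl33 was lowest in the same library, at 50.1 CPM, where the other 13 libraries held 72.5 to 150 CPM. Over all members tested, CT-WD 3 was the highest library for 5 and the lowest for 10. Of all genes tested, it was the highest library for 13.5% and the lowest for 13.8%. In the lists of related genes it was highest for 6 and lowest for 0 of 17 thin filament genes, for 8 and 6 of 30 genes of the Cul3 list, for 2 and 2 of 15 kelch-repeat genes and for 4 and 2 of 34 partners.

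Kbtbd13 (ENSMUSG00000054978, chr9:65388684-65391652, minus strand), whose human counterpart is mutated in a nemaline myopathy with slow relaxation, read 10.6, 9.29 and 8.86 CPM in CT-CTD, 13.2, 5.27 and 4.31 CPM in CT-WD, 12.8, 14.2, 11.5 and 11.4 CPM in OE-CTD, and 7.63, 12, 8.89 and 10 CPM in OE-WD. CT-WD 2 and CT-WD 3 were the lowest of the 14 libraries, while CT-WD 1 was the second highest, so the 3 libraries of this group spanned nearly the whole range. The log2 fold change was 0.36 for genotype over both diets (SE 0.197, adjusted p 0.29), -0.35 for diet over both genotypes (SE 0.197, adjusted p 0.875) and -0.32 for WD in CT (SE 0.3, adjusted p 0.894). Without CT-WD 1 the values for genotype and diet were 0.70 and -0.69 and passed the test, as did that for WD in CT and that for OE on WD, the latter at 1.01 beside 0.33 with all libraries. Without both CT libraries numbered 1, Kbtbd13 was called for genotype (0.74) and for OE on WD (1.01), but not for diet (-0.65, adjusted p 0.0554) or WD in CT (-0.92, adjusted p 0.0948). With replicate number as a block none of these 4 values was called. CT-WD 1 was also the CT library with the highest sums of fibroblast and tendon markers, and the part of those cells was not tested.

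Diet was asked in each genotype and over both. In CT mice, WD against CTD, edgeR called 0 of 40 members and 0% of all genes. DESeq2 called 0 members and 0.194% of all genes, and limma 0 members and 0%. With no adjustment, 5 members had a p under 0.05, against 7.28% of all genes. The smallest adjusted p, 0.595, was that of Klhl7 at a log2 fold change of -0.19 (SE 0.0756). Klhl7 is known for mutations in inherited retinal disease and read 60.3, 62.8 and 64.3 CPM in CT-CTD and 58.6, 54.9 and 50.4 CPM in CT-WD. Klhl38 followed at 0.55 (SE 0.231, adjusted p 0.63) and Klhl23 at -0.22 (SE 0.0968, adjusted p 0.651). The members' median was -0.02 and that of all genes 0.01. Without CT-WD 1 the count was 1, Kbtbd13, with 0.272% of all genes.

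In OE mice, WD against CTD, edgeR, DESeq2 and limma each called 0 of 40 members and 0.00647% of all genes. Before adjustment, 3 members had a p under 0.05, against 4.2% of all genes. These were Kbtbd4, which targets a corepressor complex of histone deacetylases, at a log2 fold change of 0.35 (SE 0.132), Klhl13 at -0.52 (SE 0.218) and Klhl34 at -0.24 (SE 0.103), each with an adjusted p of 1. Kbtbd4 read 5.87, 5.11, 4.78 and 4.85 CPM in OE-CTD and 6.38, 6.14, 7.61 and 6.15 CPM in OE-WD. Of its exon bases, 52.8% are shared with Ptpmt1 and 2.8% with Ndufs3, both on the other strand, at means of 27.5 CPM for Ptpmt1, 205 CPM for Ndufs3 and 5.9 CPM for Kbtbd4, and reads in the shared bases cannot be told apart. The median log2 fold change was 0.04 over the members and 0.00 over all genes.

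Over both genotypes, the effect of diet was called for 0 of 40 members by edgeR, against 0.00647% of all genes. It was called for 0 by DESeq2, against 0.136%, and for 0 by limma, against 0.00647%. At an unadjusted p under 0.05 there were 2 members, Klhl23 at -0.17 (SE 0.0638, adjusted p 0.675) and Klhl38 at 0.37 (SE 0.154, adjusted p 0.769), against 5.96% of all genes. Klhl30 was next at 0.32 (SE 0.181, adjusted p 0.875), a value of 0.02 without CT-WD 3. The median was 0.00 over the members and 0.00 over all genes. Without CT-WD 1 the count was 1, Kbtbd13, with 0.233% of all genes. For the interaction of diet and genotype, edgeR, DESeq2 and limma called 0 of 40 members. Of all genes, edgeR and limma called 0% and DESeq2 0.00647%. At an unadjusted p under 0.05 there were 3 members, Klhl7 at 0.24 (SE 0.1, adjusted p 0.834), Kbtbd4 at 0.45 (SE 0.202, adjusted p 0.838) and Klhl20 at 0.34 (SE 0.156, adjusted p 0.842), against 5.92% of all genes. The median interaction was 0.08 over the members and -0.01 over all genes.

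**Figure D3:**
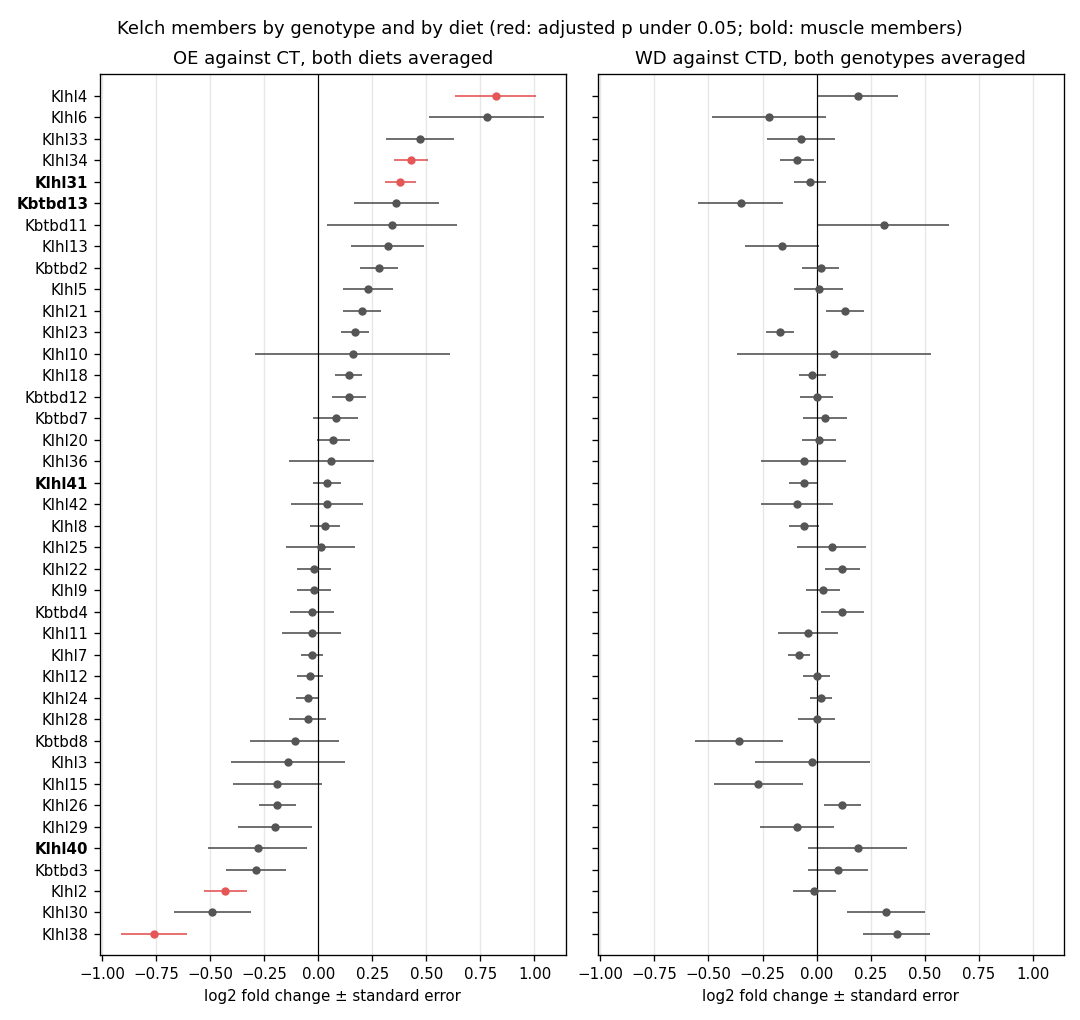
Log2 fold change of each of the 40 tested members with its standard error, for OE against CT over both diets (left) and for WD against CTD over both genotypes (right), from the fit to 14 libraries; red marks an adjusted p under 0.05 and bold the muscle members. By genotype the values run from -0.76 (Klhl38) to 0.82 (Klhl4) with 5 members in red, and by diet from -0.36 to 0.37 with 0 in red by edgeR, where 2 members had an unadjusted p under 0.05 and DESeq2 and limma called 0.

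By p for genotype over both diets, Kbtbd2, Klhl6 and Klhl33 came next after the called members, at ranks 6, 7 and 8. Klhl21 and Klhl26 stood at ranks 11 and 13. None of them passed edgeR's test. Kbtbd2, which degrades the regulatory subunit of phosphoinositide kinase and so sets insulin sensitivity, had a median of 20.7 CPM in CT (18.6 to 25) and 26.4 CPM in OE (20.3 to 29.6), a log2 fold change of 0.28 (SE 0.0863, adjusted p 0.0589). Klhl6, best known from B cells, had a median of 1.07 CPM in CT (0.711 to 1.51) and 1.95 CPM in OE (0.803 to 2.97), at 0.78 (SE 0.266, adjusted p 0.0826). Klhl33 had 110 CPM in CT (50.1 to 120) and 136 CPM in OE (115 to 150), at 0.47 (SE 0.159, adjusted p 0.0837). The genotypes overlapped for each of these 3 members, and DESeq2 called all 3, with 11.6% of all genes. Klhl6 was also called with replicate number as a block, as was Klhl26, at -0.19 with all libraries (SE 0.0856, adjusted p 0.199). Klhl21 stood at 0.20 (SE 0.0881, adjusted p 0.173), from 218 CPM in CT (157 to 248) to 239 CPM in OE (228 to 258).

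The members lie on 16 chromosomes, with 5 on chromosome 9, among them Klhl31, Klhl40 and Kbtbd13, and 4 on the X. In 4 pairs, members lie within 1000000 bases of each other: Klhl10 and Klhl11 (5591 bases apart, chromosome 11), Kbtbd7 and Kbtbd6 (20798, chromosome 14), Klhl6 and Klhl24 (114504, chromosome 16) and Klhl41 and Klhl23 (137713, chromosome 2). Medians within these pairs were 0.138 CPM per kilobase for Klhl10 and 0.993 for Klhl11, 1.57 for Kbtbd7 and 0 for Kbtbd6, 0.548 for Klhl6 and 16.7 for Klhl24, and 250 for Klhl41 and 4.81 for Klhl23. All 45 members had the same start and end in the GENCODE M21 annotation, where 11 share exon bases with another gene, 9 of them with a gene on the opposite strand and 2 on the same strand. For Klhl40 this covers 21.6% of exon bases, by a gene with a mean of 0.0485 CPM.

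Lists of related genes, described by counts and medians beside those of all genes tested, come next, first for genotype over both diets, where 8.49% of all genes were called. Counts of 1 of 15, 2 of 30, 1 of 17 and 3 of 34 in the lists are near that share or below it, and the genes called are described singly. Of 16 other kelch-repeat genes, 15 were tested and 1 passed: Ivns1abp, an actin-binding relative of the Klhl proteins, had a median of 214 CPM and fell by 0.38 on the log2 scale (SE 0.0647, adjusted p 0.00327). It read 241, 250 and 292 CPM in CT-CTD, 256, 243 and 255 CPM in CT-WD, 202, 206, 182 and 193 CPM in OE-CTD, and 216, 189, 212 and 176 CPM in OE-WD. Every OE library lay below every CT library. On CTD alone it fell by 0.42 (SE 0.0915, adjusted p 0.0288), a call lost without CT-CTD 2, CT-CTD 3, OE-CTD 1, OE-CTD 2 or OE-CTD 3 and with replicate number as a block (-0.41). Keap1, the sensor of oxidative stress in this list, had a median of 73.7 CPM and a log2 fold change of 0.00 (SE 0.0671, adjusted p 0.994). The list's median was 0.05, beside -0.00 for all genes. The count of 1 rose to 3 without CT-CTD 1 (8.12% of all genes) and to 2 without OE-WD 4 (7.47%).

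Of 30 genes of the Cul3 ligase machinery, all were tested, 1 rose and 1 fell. Cops2, a subunit of the COP9 signalosome that removes Nedd8 from cullins, had a median of 84.8 CPM and fell by 0.22 (SE 0.0557, adjusted p 0.0229), and Dcun1d1, which promotes the attachment of Nedd8, had a median of 23.5 CPM and rose by 0.21 (SE 0.0615, adjusted p 0.046). The call of Cops2 was lost without CT-CTD 2, CT-CTD 3 or CT-WD 3, and that of Dcun1d1 held without CT-WD 1, OE-CTD 4 or OE-WD 4 and was lost without any of the other 11 libraries. The scaffold Cul3 itself read 251, 250 and 245 CPM in CT-CTD, 238, 239 and 228 CPM in CT-WD, 218, 217, 214 and 214 CPM in OE-CTD, and 237, 214, 223 and 223 CPM in OE-WD. Its log2 fold change was -0.13 (SE 0.0462, adjusted p 0.0882) and did not pass the test. The list's median was -0.06. DESeq2 called 5 genes of the list (11.6% of all genes) and limma 4 (7.34%). Without CT-WD 1 edgeR called 5 (16% of all genes), and without CT-CTD 2, CT-CTD 3 or CT-WD 3 it called 0 (4.6% to 5.44%). It called 1 without any of CT-CTD 1, CT-WD 2, OE-CTD 1, 2 or 3, or OE-WD 1, 2 or 3 (4.57% to 8.33%). On CTD alone Cops2 fell by 0.31 (SE 0.0787, adjusted p 0.0498), a call that held without CT-CTD 1, CT-WD 1, CT-WD 3 or OE-WD 4 and was lost without any other library and with replicate number as a block (-0.29).

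Of 17 genes of the thin filament and of nemaline myopathy, all were tested and 1 passed: Tmod4, which caps the pointed end of actin filaments, had a median of 403 CPM and fell by 0.28 (SE 0.0654, adjusted p 0.0167), a call lost without CT-CTD 2 or CT-WD 2. Nebulin and leiomodin 3, the proteins that Klhl40 stabilises, had transcripts at medians of 4295 CPM for Neb and 132 CPM for Lmod3, with log2 fold changes of -0.17 (SE 0.0883, adjusted p 0.27) and 0.07 (SE 0.095, adjusted p 0.727). The list's median was 0.03, and without CT-WD 1 the count was 2, with 16% of all genes.

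Of 35 known partners of other members, 34 were tested, 1 rose and 2 fell. Eif4ebp1, the translational repressor targeted by Klhl25, read 48.9, 48 and 51.6 CPM in CT-CTD, 42.7, 61.4 and 61.5 CPM in CT-WD, 40.6, 32.5, 31.3 and 33.3 CPM in OE-CTD, and 34.7, 32, 36.1 and 34.3 CPM in OE-WD. All OE values lay below all CT values, and Eif4ebp1 fell by 0.61 (SE 0.0843, adjusted p 0.000908). Dapk1, a death-associated kinase targeted by Klhl20, had a median of 4.54 CPM and fell by 0.85 (SE 0.202, adjusted p 0.0183), a call lost without CT-CTD 3 or CT-WD 3. Dvl3, a Dishevelled protein and thus a partner of Klhl12, had a median of 50.8 CPM and rose by 0.23 (SE 0.068, adjusted p 0.0442), a call that held without CT-WD 1 or OE-CTD 4 and was lost without any other library. Klhl25, Klhl20 and Klhl12 themselves did not pass the test. The list's median was -0.03. The count of 3 was 6 without CT-WD 1 (16% of all genes) and 1 without CT-CTD 3 (4.6%) or CT-WD 3 (5.44%). DESeq2 called 5 (11.6% of all genes) and limma 2 (7.34%).

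Within the diets, Eif4ebp1 fell on both, by 0.52 on CTD (SE 0.119, adjusted p 0.0318) and by 0.69 on WD (SE 0.119, adjusted p 0.0276), and Dapk1 fell by 1.28 on CTD (SE 0.284, adjusted p 0.0299). Dapk1 stood at -0.42 on WD (SE 0.289, adjusted p 0.493), with an interaction of 0.85 (SE 0.408, adjusted p 0.847). Each of these 3 calls was lost with replicate number as a block (-0.52, -0.67 and -1.08) and by limma, which called 0 partner genes on either diet. DESeq2 called 3 on each, with 5.01% of all genes on CTD and 3.69% on WD. The call of Eif4ebp1 on CTD was lost without CT-CTD 1, 2 or 3 or OE-CTD 2, 3 or 4, that on WD without CT-WD 2, CT-WD 3 or OE-WD 2, 3 or 4, and that of Dapk1 without CT-CTD 2, CT-CTD 3 or any OE-CTD library. For diet, in CT, in OE and over both, and for the interaction, edgeR, DESeq2 and limma called 0 genes of the 4 lists. In these 4 comparisons an unadjusted p under 0.05 was found in the kelch-repeat list for 3, 0, 0 and 3 genes, in the Cul3 list for 0, 0, 0 and 1, in the thin filament list for 1, 0, 2 and 1, and in the partner list for 4, 0, 3 and 2. Over all genes the shares were 7.28%, 4.2%, 5.96% and 5.92%. For genotype on WD, edgeR called 0 genes of the kelch-repeat, Cul3 and thin filament lists, with 4, 4 and 2 at an unadjusted p under 0.05, while DESeq2 called 1 in each and limma 0. Of all genes on WD, edgeR called 0.725%, DESeq2 3.69% and limma 0.252%, and 16.9% had an unadjusted p under 0.05. Without CT-WD 1 edgeR called 2 genes of the Cul3 list and 2 of the thin filament list there, and 4 of the partner list. That fit called 9.65% of all genes. On CTD it called 0 genes of the thin filament list, with 1 at an unadjusted p under 0.05, and DESeq2 and limma called 0.

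Promoter sequences from RefSeq (GRCm38.p6), 250 bases before to 50 bases after each start, matched 37 of the 45 members with 49 promoters, and Kbtbd11, Kbtbd6, Klhl14, Klhl24, Klhl30, Klhl38, Klhl42 and Klhl8 had no entry. The letters CACGTG, the E-box bound by Myc with Max, were searched on both strands and found for 3 members, Klhl20, Klhl22 and Klhl28, in 4 of 49 promoters, and in 7.15% of all 32851 promoters. The letters TTATGTAA, the D-box, were found for 2 members, Kbtbd7 and Klhl9, in 2 of 49 promoters, and in 0.938% of all promoters. Neither was found for the 4 called members with a promoter or for the 4 muscle members. The MEF2 consensus, a motif of muscle genes, was searched after the sequences had been seen. It was found for 3 members, Kbtbd12, Klhl33 and Klhl41, in 3 of 49 promoters, and in 3.19% of all promoters. The 250 bases before the RefSeq start are printed for Klhl34 (chrX:157818185-157818434), a called member without overlap between genotypes, and for the most abundant member, Klhl41 (chr2:69669870-69670119), both on the plus strand. For Klhl31, 232 of these 250 bases lie in an exon of the gene in GENCODE M21, and they are not printed. Capitals mark the match to the MEF2 consensus, which starts 63 bases before the start of Klhl41, and a match describes letters only.
Klhl34: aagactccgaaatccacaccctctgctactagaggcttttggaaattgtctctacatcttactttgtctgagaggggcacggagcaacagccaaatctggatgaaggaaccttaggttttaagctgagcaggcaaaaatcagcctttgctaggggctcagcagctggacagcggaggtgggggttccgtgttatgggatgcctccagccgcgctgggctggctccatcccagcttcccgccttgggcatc
Klhl41: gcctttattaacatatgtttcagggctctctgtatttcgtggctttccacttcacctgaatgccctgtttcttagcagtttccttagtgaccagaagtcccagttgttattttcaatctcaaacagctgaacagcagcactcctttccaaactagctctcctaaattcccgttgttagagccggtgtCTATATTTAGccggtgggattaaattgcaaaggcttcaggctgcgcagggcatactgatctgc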

How the data were processed

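RNA of 14 libraries was counted per gene: the authors deposited counts (HISAT2 2.0.5, featureCounts 1.5.0-p3, mm10) and FPKM values, and the strand setting and annotation release are not given. Counts were fitted in edgeR 4.0.16 (R 4.3.3) with TMM factors, the default filter on low counts, a mean per group and quasi-likelihood tests; 15458 of 54532 genes were tested, and a gene was called at a Benjamini-Hochberg adjusted p under 0.05. The biological coefficient of variation was 17%. Total counts of 21833839 to 28519159 per library set the precision for low members, and limits from counts cover counting error only. On simulated counts with 200 genes changed 2-fold, edgeR recovered 120 with 4 false calls for WD in CT, and 133 with 6 for WD in OE. The simulated libraries were independent draws without the library differences seen on the principal components, and smaller changes were not simulated. The simulation therefore cannot give the power or the rate of false calls for the real diet comparisons.

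Named were the 4 muscle members, every called member, the 3 members with the smallest p in each of 7 comparisons, the 10 with the highest level, those removed by the filter, Cul3, Keap1, and up to 5 called genes per list and comparison. Members outside this rule for which values are given, Klhl3, Klhl6, Klhl10, Klhl12, Klhl15, Klhl26, Kbtbd2 and the neighbours in pairs, were named after their values were seen. Members and lists were chosen with earlier results of these data known.

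Alternatives were DESeq2 1.42.0, limma 3.58.1 on log2(FPKM + 1), other size factors, no filter, the compared groups only, replicate number as a block, each library left out, and the group names of CT-WD and OE-CTD swapped, since group sizes in the study's text do not match all labels. Replicate numbers were checked as pairs: residual profiles of equal number correlated at 0.385, 0.123 and 0.203 between CT-WD and CT-CTD, at 0.0711 to 0.338 between OE-WD and OE-CTD, at -0.23 to -0.0647 between OE-WD and CT-WD and at -0.122 to 0.0465 between OE-CTD and CT-CTD. The labels name no pairs, and digits shared by sample codes were not used. CT has no library numbered 4, so for genotype the block makes no use of the OE libraries with that number. Reads from the human transgene were not analysed. Python 3.11.15 with pandas 2.3.3 and matplotlib 3.10.9 made the tables and plots.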

Additional observations from a re-analysis of the deposited data

Results flagged for a closer look

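Of 41 groups of 4 libraries examined for the 23 named members, 3 held a library whose gap to the nearest other took up most of the group's range by Dixon's criterion, which chance meets in about 1 in 20 groups. Kbtbd4 stood at 7.61 CPM in OE-WD 3, where the other 3 libraries held 6.14 to 6.38 CPM. Klhl7 stood at 56.6 CPM in OE-WD 4, beside 58.2 to 58.5 CPM. Kbtbd6 stood at 0.165 CPM in OE-CTD 3, beside 0 CPM in the others, from at most 4 counts in a library, and with the others at 0 any count meets the criterion. Groups of 3 libraries, CT-WD among them, were not examined in this way.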

How the results depend on the processing

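Left out in turn, each library gave 0 to 1 called members for WD in CT, 0 to 0 for WD in OE, 0 to 6 for OE on WD, 0 to 3 for OE on CTD, 0 to 1 for diet over both genotypes, 5 to 10 for genotype over both diets and 0 to 0 for the interaction, beside 0, 0, 0, 2, 0, 5 and 0 with all libraries by edgeR (5, 3, 12, 8, 2, 13 and 3 at an unadjusted p under 0.05). Where the count for genotype over both diets was not 0, it held the same 5 members under every setting tried. For OE on WD, DESeq2 called 3 members (3.69% of all genes) and no filter gave 2 (3.55%). Leaving out both CT libraries numbered 1 gave 6 (10.8%), where edgeR with all libraries called 0 (0.725%). For OE on CTD, limma on FPKM gave 1, only the groups compared gave 2 (Klhl34 and Klhl38), and no filter gave 3. The replicate block gave 0 (7 at an unadjusted p under 0.05). Leaving out both OE libraries numbered 4 gave 1, with 3.59% of all genes, where edgeR with all libraries called 2 and 2.67%. For genotype over both diets, DESeq2 called 8, the replicate block and no filter gave 7 each, and leaving out both CT libraries numbered 1 gave 11. With the group names of CT-WD and OE-CTD swapped, 2 members were called for WD in CT, 0 for OE on CTD, 5 for diet over both genotypes and 0 for genotype over both diets (2 at an unadjusted p under 0.05), and in the last Klhl31, Klhl34 and Klhl38 stood at -0.03, -0.09 and 0.37. By algebra the swap only renames the contrasts, so these are the diet and genotype results of the labels as given under each other's names (1312 genes and the same 5 members under diet, 8.49% of all genes). For the other changes the cause was not tested.

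The settings without 2 libraries each were chosen after seeing the data. Of 1034 log2 fold changes of named members under settings that kept the names, 980 kept both their side of the threshold and their sign. Of the others, 17 lost their call, 18 gained it, 19 uncalled values changed sign and no called value did. Of 160 counts for the 8 list results over 0 with all libraries, 90 stayed within 1.5 times, and of 400 for the 20 results at 0, 391 stayed at 0. Groups held 3 or 4 libraries, and the labels do not say whether equal replicate numbers are paired.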
